A study of Mus musculus with 12 samples.

Results

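The genes described here are the ligands of the B7 family that dendritic cells use to switch T cells on or off, Cd80, Cd86, Cd274, Pdcd1lg2 and Icosl, together with Cd83, a surface molecule long used as a mark of dendritic cell maturation. They were chosen by symbol, as probe sets annotated to 1 of these genes and to no other gene, and a gene with several was represented by its brightest probe set on average. All 6 genes were measured, with 7 probe sets (Cd80 had a second one), out of 19937 genes on the array. RNA came from bone marrow-derived mouse dendritic cells, kept for 7 days in GM-CSF (200 ng/ml) and bead-selected on CD11c to a stated purity above 95%. The 12 arrays formed 4 groups of 3: IL-2 knockout cells with curdlan for 6 h, untreated IL-2 knockout cells, wild-type cells with curdlan for 6 h, and untreated wild-type cells. Curdlan is a beta-glucan that binds Dectin-1, the receptor encoded by Clec7a. The strain label, that of the targeted Il2 allele B6.129P2-Il2tm1Hor/J, was the same for every array, wild type included, so genotype was read from the genotype label and the titles. Nothing in the labels ties the replicates to separate mice, and the p-values therefore measure the spread between these arrays, which may be technical.

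B7 ligands sit on antigen-presenting cells and are read by receptors on T cells. CD80 and CD86 bind CD28, which adds the second signal that lets a T cell respond to antigen, and they also bind CTLA-4, which restrains it. PD-L1 (Cd274) and PD-L2 (Pdcd1lg2) bind PD-1 and restrain T cells, whereas ICOS ligand (Icosl) binds ICOS and helps T cells that have already been activated. CD83 keeps MHC class II and CD86 on the cell surface by opposing the ubiquitin ligase MARCH1.

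The arrays limit the precision through their number, since an intensity carries no count. Array medians lay between 6.59 and 6.64 and no 2 arrays were identical. Il2 was at 5.63 to 5.87 with curdlan in knockout cells and at 6.74 to 7.80 with curdlan in wild-type cells, so the targeted gene went with the labels in the curdlan groups. Untreated cells gave 5.77 to 6.04 in knockout arrays and 5.37 to 5.56 in wild-type arrays, beside lower quartiles of 5.30 to 5.49 over the arrays. Untreated, Il2 was thus higher on all knockout arrays, opposite to the curdlan groups, as were 7.55% of all genes. That difference of 0.41 was not called (adjusted p = 0.524 by limma). Clec7a passed the test in 0 of the 4 curdlan and genotype comparisons by limma at an adjusted p of 0.05. Of the 8 dendritic cell markers, Itgax, H2-Ab1, H2-Aa and Cd74 had group means of 12.91 to 13.27, against a median gene mean of 6.96. Flt3 was below that median in untreated cells (6.78 in knockout, 6.89 in wild type), and so was Cd209a with curdlan in knockout cells (6.85). With curdlan, Cd209a differed by -1.84 in knockout cells and by -2.87 in wild-type cells, Zbtb46 rose by 0.53 in knockout cells and 0.44 in wild-type cells, and Flt3 rose by 0.92 in knockout cells. The marker lists for B cells, T cells, and mast cells and basophils averaged 5.05 to 5.38 on every array, with Cd79a, Ms4a1 and Cr2 of the 6 B cell markers below the lower quartile on every array. The 8 neutrophil markers averaged 5.60 to 5.94. With curdlan, Ighm of the B cell list (0.22) and Mcpt8 of the mast cell and basophil list (0.24) were called higher in knockout cells. The 6 macrophage markers averaged 11.53 to 11.89 in all groups, and 2 of them, Mertk and Fcgr1, rose with curdlan in both genotypes. Over all genes 9.29% rose in knockout cells and 7.27% in wild-type cells. No marker of this list was called lower, yet its median change was -0.13 in knockout cells and -0.22 in wild-type cells. The part of these marker changes in the results was not tested.

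The promoter windows are shown because NF-kB, interferon-regulated factors, AP-1 and NFAT are known to act on genes of this family, and the members responded to curdlan unequally. RefSeq sequence of GRCm38.p6 covered 4 of the 6 genes, Icosl, Cd80, Cd274 and Pdcd1lg2, each from 250 bases before to 50 bases after the annotated start, on the plus strand. The searched motifs stand in capitals.
Cd80 (chr16:38458683-38458982): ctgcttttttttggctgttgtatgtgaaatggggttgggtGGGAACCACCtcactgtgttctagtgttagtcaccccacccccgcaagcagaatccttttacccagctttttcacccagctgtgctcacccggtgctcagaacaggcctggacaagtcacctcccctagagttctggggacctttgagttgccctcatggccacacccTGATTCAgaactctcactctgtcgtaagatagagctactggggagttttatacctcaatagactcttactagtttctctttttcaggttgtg
Cd274 (chr19:29367188-29367487): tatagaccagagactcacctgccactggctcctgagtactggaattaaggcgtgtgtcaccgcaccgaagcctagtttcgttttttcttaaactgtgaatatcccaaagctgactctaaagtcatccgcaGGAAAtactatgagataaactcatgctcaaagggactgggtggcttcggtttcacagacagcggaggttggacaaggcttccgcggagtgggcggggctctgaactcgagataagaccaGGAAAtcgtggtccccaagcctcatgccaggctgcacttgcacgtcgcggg
Pdcd1lg2 (chr19:29410669-29410968): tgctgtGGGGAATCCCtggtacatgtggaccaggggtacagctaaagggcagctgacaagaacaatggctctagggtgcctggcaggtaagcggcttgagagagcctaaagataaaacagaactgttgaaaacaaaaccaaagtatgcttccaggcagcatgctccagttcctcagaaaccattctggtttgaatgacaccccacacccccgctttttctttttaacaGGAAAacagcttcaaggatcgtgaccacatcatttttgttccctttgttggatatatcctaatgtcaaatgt
Icosl (chr10:78069118-78069417): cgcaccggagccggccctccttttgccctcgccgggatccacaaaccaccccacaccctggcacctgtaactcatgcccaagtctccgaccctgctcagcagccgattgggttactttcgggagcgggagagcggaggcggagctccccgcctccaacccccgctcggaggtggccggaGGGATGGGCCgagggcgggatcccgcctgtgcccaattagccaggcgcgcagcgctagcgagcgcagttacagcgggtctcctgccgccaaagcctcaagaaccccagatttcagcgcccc
An NF-kB type motif (GGGA, any 4 bases, then CC, on either strand) was found in the windows of Cd80 (GGGAACCACC), Pdcd1lg2 (GGGGAATCCC) and Icosl (GGGATGGGCC), and in 20.7% of the 32851 promoter windows of the same length. The AP-1 motif TGANTCA was found in Cd80 alone of the 4, as TGATTCA at base -42 from the start, and in 7.81% of all windows. The NFAT core GGAAA occurred in Cd274 and Pdcd1lg2 and in 61.3% of all windows. A motif of the interferon-stimulated response element type (GAAA, any 2 bases, then GAAA) occurred in 0 of the 4 windows and in 3.44% of all windows, and the gamma-activated site TTCNNNGAA in 0 of the 4 and in 8.3%. All motifs were read on both strands, and none of the matches shown overlapped. These are matches of letters within 300 bases and carry no statement on binding.

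Curdlan raised Cd83, Cd86 and Cd274 in both genotypes. Of the 6 genes, 3 rose and 0 fell in knockout cells, where 9.29% of all genes rose and 13.2% fell. In wild-type cells 4 rose and 1 fell, where 7.27% of all genes rose and 12.3% fell (limma, adjusted p under 0.05 over 19937 genes). The median change of the 6 genes was 0.54 in knockout cells and 0.62 in wild-type cells on the log2 scale, beside 0.04 in knockout cells and 0.02 in wild-type cells for all genes. Arrays of the same genotype and number were also treated as pairs, an assumption drawn from the correlation of their residuals and not from the labels. So paired, 5 members rose in knockout cells (background 14.4%) and 5 rose and 1 fell in wild-type cells (background 9.95% and 16.4%). Treated arrays lay wholly above untreated ones for 3 members in knockout cells (19.4% of all genes) and for 4 in wild-type cells (17%), and wholly below for 1 in wild-type cells (21%). In RNA from a bulk culture, a change in the number of cells that express a gene and a change in RNA per cell cannot be told apart.

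**Figure D1:**
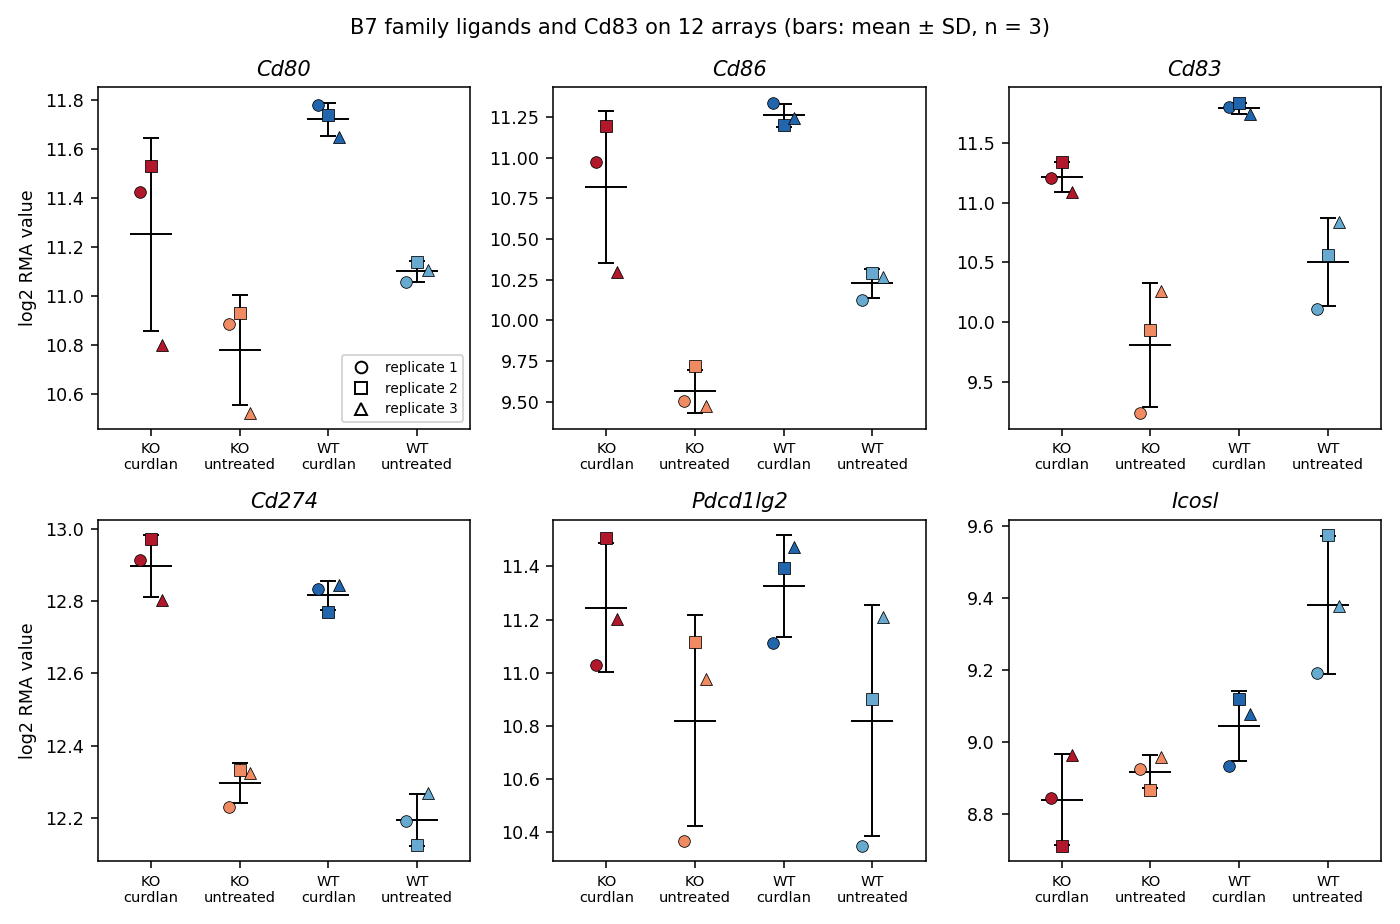
Deposited log2 values of the 6 genes (vertical axes, 1 panel per gene) on the 3 arrays of each group, with horizontal bars at the group mean and error bars of 1 SD (n = 3). Marker shape gives the replicate number and KO stands for IL-2 knockout. The curdlan groups of Cd83, Cd86 and Cd274 lie wholly above the untreated groups of their genotype, and the third curdlan-treated knockout array is low for Cd80 (10.80) and Cd86 (10.29).

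The first of the CD28 ligands, Cd86, had log2 values of 10.97, 11.19 and 10.29 in curdlan-treated knockout cells, against 9.50, 9.72 and 9.47 in untreated knockout cells. Wild-type cells gave 11.34, 11.20 and 11.24 with curdlan, against 10.13, 10.29 and 10.26 untreated. All treated arrays were above all untreated arrays of their genotype, and the treated knockout arrays were spread more widely (SD 0.47) than the treated wild-type arrays (SD 0.07). The rise was 2.39-fold in knockout cells (log2 1.26 ± 0.17 SE, adjusted p = 0.000787 by limma) and 2.04-fold in wild-type cells (log2 1.03 ± 0.17 SE, adjusted p = 0.00215 by limma). The group means were 10.82 with curdlan and 9.56 untreated in knockout cells, and 11.26 with curdlan and 10.23 untreated in wild-type cells, so that wild type with curdlan was the highest group, followed by knockout with curdlan, untreated wild type and untreated knockout. The treated knockout arrays reached up to 11.19, just under the lowest treated wild-type array (11.20), and down to 10.29, level with the highest untreated wild-type array (10.29). Their spread therefore filled the space between both wild-type groups.

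Cd80, the other CD28 ligand, had log2 values of 11.43, 11.53 and 10.80 in curdlan-treated knockout cells, against 10.89, 10.93 and 10.52 in untreated knockout cells. In wild-type cells it had 11.78, 11.74 and 11.65 with curdlan, against 11.06, 11.14 and 11.11 untreated. The groups were apart in wild-type cells but overlapped in knockout cells, because the third treated knockout array lay below 2 of the untreated ones. The knockout change was 0.47 ± 0.16 SE on the log2 scale (95% interval 0.12 to 0.83) and missed the threshold (adjusted p = 0.0562 by limma). It passed with the arrays paired by number (adjusted p = 0.0020) and without the third treated knockout array (adjusted p = 0.0015). The third untreated knockout array was also the lowest of its group. The knockout change was 0.70 without the third treated array and 0.57 without both arrays of that replicate. The wild-type rise was 1.54-fold (log2 0.62, adjusted p = 0.0195 by limma). Its call was lost without the first (adjusted p = 0.0640) or the second (0.0542) treated wild-type array, or without the first (0.0618) or the third (0.0516) untreated one, all by limma.

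A second probe set of Cd80 gave values of 10.86, 11.03 and 10.11 in treated knockout cells, against 10.06, 10.14 and 9.48 in untreated knockout cells. It gave 11.30, 11.42 and 11.30 in treated wild-type cells, against 10.18, 10.53 and 10.47 in untreated wild-type cells. On this probe set the curdlan change passed the threshold in both genotypes, at 0.77 ± 0.22 SE in knockout cells (adjusted p = 0.0294 by limma) and 0.95 in wild-type cells (adjusted p = 0.0117 by limma). The knockout arrays again overlapped, through the third treated array. The probe sets thus disagreed on the side of the threshold in knockout cells and had the same direction in both genotypes.

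Cd83 had the largest mean change of the 6 genes in both genotypes, although Cd86 changed more in the second knockout pair (1.47 for Cd86, 1.41 for Cd83) and in the third wild-type pair (0.98 for Cd86, 0.90 for Cd83). Its log2 values were 11.21, 11.34 and 11.09 in curdlan-treated knockout cells, against 9.24, 9.93 and 10.26 in untreated knockout cells. Treated wild-type cells gave 11.79, 11.83 and 11.74, against 10.11, 10.56 and 10.84 in untreated wild-type cells. The treated arrays of a genotype lay close together, whereas the untreated arrays were spread over about a whole log2 unit in knockout cells. The rise was 2.64-fold in knockout cells (log2 1.40 ± 0.22 SE, adjusted p = 0.0018 by limma) and 2.44-fold in wild-type cells (log2 1.29, adjusted p = 0.00252 by limma). By size it ranked 93 among the rises of all genes in knockout cells and 132 in wild-type cells. Its group means were 11.21 with curdlan and 9.81 untreated in knockout cells, and 11.79 with curdlan and 10.50 untreated in wild-type cells, the same order of groups as for Cd86. Untreated knockout and untreated wild-type arrays overlapped, and the other neighbours in that order did not.

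The PD-1 ligands differed from each other in how closely the arrays of a group lay together. Cd274, which encodes PD-L1, had log2 values of 12.91, 12.97 and 12.80 in curdlan-treated knockout cells, against 12.23, 12.33 and 12.32 in untreated knockout cells. In wild-type cells it had 12.83, 12.77 and 12.84 with curdlan, against 12.19, 12.13 and 12.27 untreated. All treated arrays of both genotypes were above all untreated arrays, and no group had an SD above 0.09. The rise was 1.52-fold in knockout cells (log2 0.60 ± 0.06 SE, adjusted p = 9.14e-05 by limma) and 1.54-fold in wild-type cells (log2 0.62, adjusted p = 5.96e-05 by limma). In rank by size it stood at 498 in knockout cells and 517 in wild-type cells, far below Cd83 and Cd86.

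Pdcd1lg2, which encodes PD-L2 and is the next gene after Cd274 on chromosome 19, had 11.03, 11.51 and 11.20 in curdlan-treated knockout cells, against 10.37, 11.12 and 10.98 in untreated knockout cells. Wild-type values were 11.11, 11.39 and 11.47 with curdlan, against 10.35, 10.90 and 11.21 untreated. The groups overlapped in both genotypes, and the first replicate was the lowest array of all 4 groups, which 2.85% of all genes share. The change was 0.42 ± 0.23 SE in knockout cells (95% interval -0.08 to 0.93, adjusted p = 0.193 by limma) and 0.51 in wild-type cells (95% interval 0.00 to 1.01, adjusted p = 0.156 by limma). Within number-matched pairs the treated array was the higher one in all 6, as for 18.5% of all genes, by 0.66, 0.39 and 0.23 in knockout cells and by 0.76, 0.49 and 0.26 in wild-type cells. Without the first untreated array the change was 0.20 in knockout cells and 0.27 in wild-type cells. With the pairs in the limma fit the change passed in knockout cells (adjusted p = 0.0161) and in wild-type cells (adjusted p = 0.0076).

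**Figure D2:**
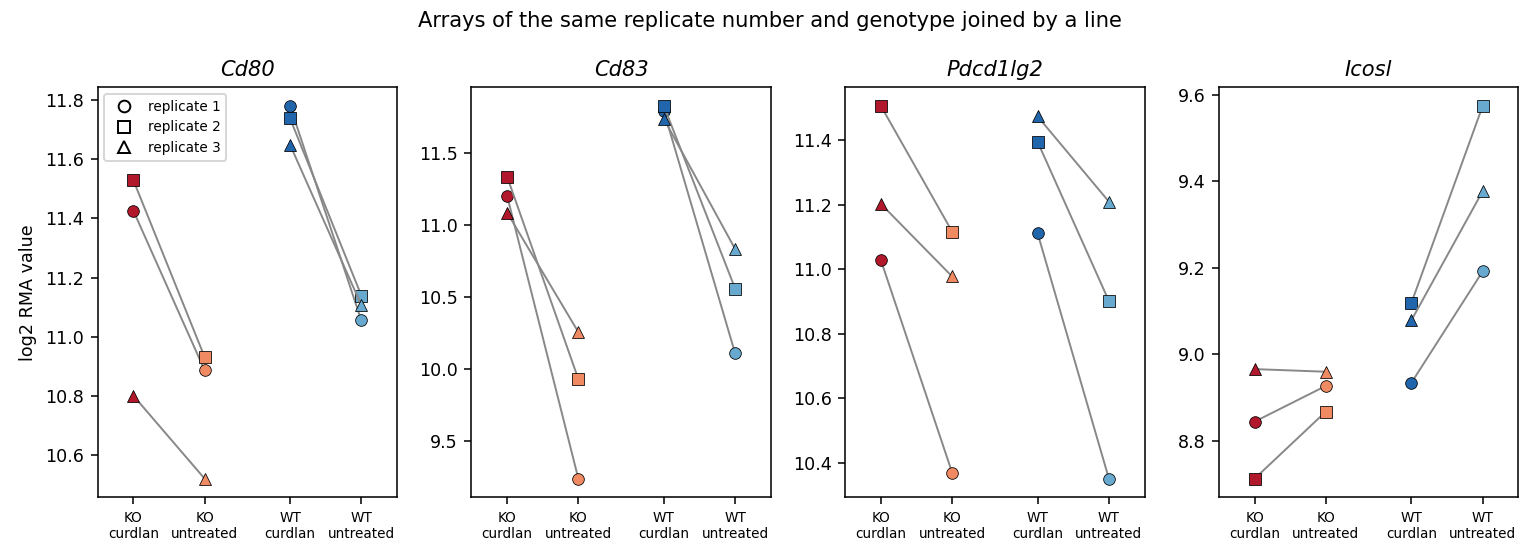
Log2 values of Cd80, Cd83, Pdcd1lg2 and Icosl (vertical axes), with a line joining the curdlan-treated and the untreated array of the same genotype and replicate number. For Pdcd1lg2 the lines slope the same way in all 6 pairs although the groups overlap, and for Icosl the wild-type lines run opposite to those of the other genes shown.

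Icosl was the one member that fell. It had 8.84, 8.71 and 8.97 in curdlan-treated knockout cells, against 8.93, 8.87 and 8.96 in untreated knockout cells. In wild-type cells it had 8.93, 9.12 and 9.08 with curdlan, against 9.19, 9.57 and 9.38 untreated. Treated and untreated arrays were apart in wild-type cells, by a gap smaller than the spread of either group, and intermingled in knockout cells. The knockout change was -0.08 on the log2 scale (95% interval -0.29 to 0.13, adjusted p = 0.565 by limma), and the wild-type change was -0.34 (95% interval -0.55 to -0.13, adjusted p = 0.0284 by limma). The wild-type call rested on single arrays, since it was lost without the first (adjusted p = 0.108) or the third (0.0523) treated wild-type array and without the second (0.108) or the third (0.0710) untreated one. It was also lost where only the arrays of wild-type cells were fitted (adjusted p = 0.0634).

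The curdlan changes of the genotypes were compared directly with the interaction term, knockout change minus wild-type change. None of the 6 genes passed by limma, 0 of 19937 genes did, and 552 genes (2.77%) had an unadjusted p under 0.05. Even the targeted gene, Il2, missed the threshold, at -1.89 (95% interval -2.51 to -1.28, adjusted p = 0.357 by limma). The interaction was 0.26 for Icosl (95% interval -0.04 to 0.56), 0.22 for Cd86 (-0.32 to 0.77) and 0.12 for Cd83 (-0.58 to 0.81). It was -0.15 for Cd80 (-0.65 to 0.35) and -0.08 for Pdcd1lg2 (-0.79 to 0.63). For Cd274 the interval was narrowest, with a difference of -0.02 (-0.21 to 0.17). With the arrays paired by number, 0 genes passed as well, and the interval of Icosl was 0.07 to 0.45 (adjusted p = 0.782 by limma), that of Cd80 -0.38 to 0.08 and that of Pdcd1lg2 -0.42 to 0.26.

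**Figure D3:**
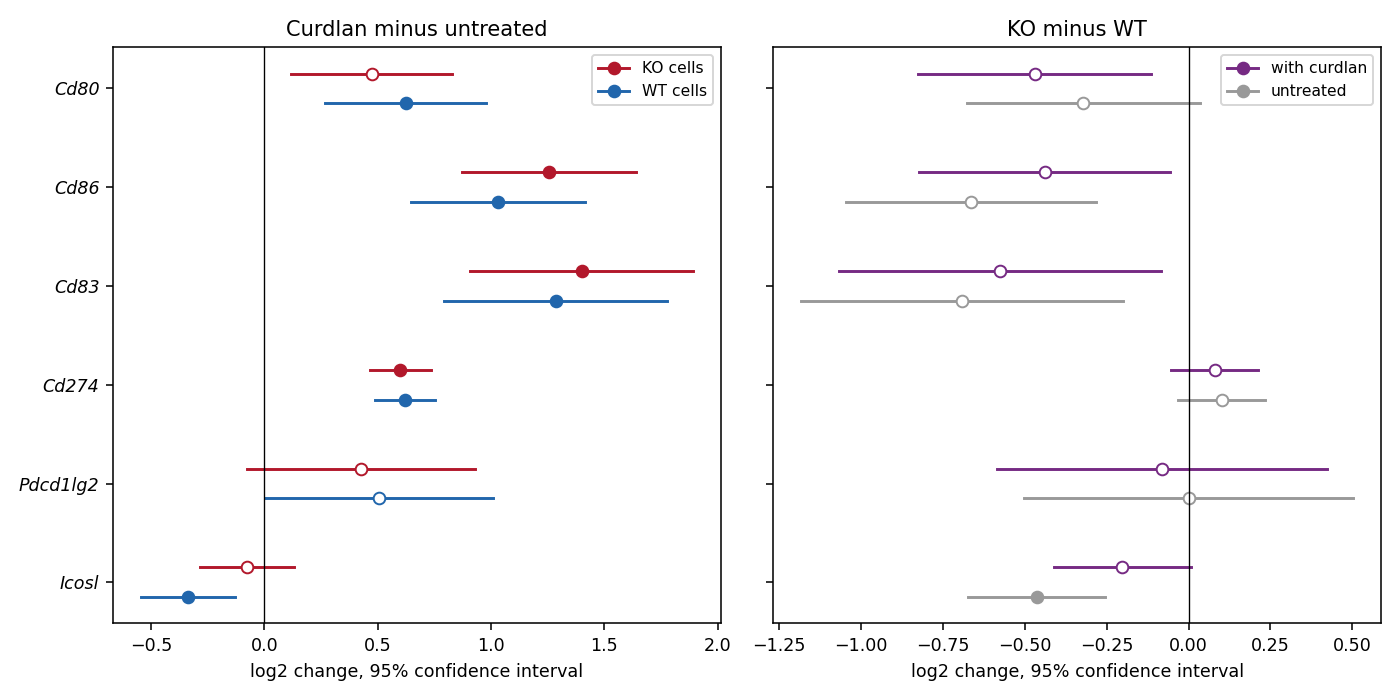
Fitted changes of the 6 genes on the log2 scale (horizontal axes) with 95% confidence intervals of the limma fit (8 residual degrees of freedom before moderation); filled points have an adjusted p under 0.05. The left panel gives curdlan minus untreated in knockout and wild-type cells and the right panel knockout minus wild type with curdlan and untreated. The intervals of the genotypes overlap for every gene on the left, and on the right the points of Cd80, Cd86, Cd83 and Icosl lie to the left of 0, with 1 filled (Icosl, untreated), while those of Cd274 and Pdcd1lg2 lie close to it.

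The CD28 ligands and Cd83 had lower mean levels in knockout cells than in wild-type cells in both conditions, by amounts that missed the threshold. With curdlan, all knockout arrays were below all wild-type arrays for Cd80, Cd86 and Cd83, 3 of 6 genes, where 6.84% of all genes did so. The difference, knockout minus wild type, was -0.47 for Cd80 (95% interval -0.83 to -0.12), -0.44 for Cd86 (-0.82 to -0.06) and -0.58 for Cd83 (-1.07 to -0.09). The adjusted p by limma was 0.262 for Cd80, 0.344 for Cd86 and 0.333 for Cd83. No member passed, where 0.622% of all genes did. These 3 had an unadjusted p under 0.05, as did 11.6% of all genes in either direction and 6.13% in the lower one. Without the third treated knockout array the Cd86 difference shrank to -0.18 and the Cd80 difference to -0.24. That of Cd83 stayed between -0.64 and -0.52 over every alternative run. The second Cd80 probe set differed by -0.68 with curdlan, also short of the threshold (adjusted p = 0.237 by limma).

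In untreated cells the knockout arrays were all below the wild-type arrays for Cd80, Cd86 and Icosl, which 7.88% of all genes share. Icosl was the 1 member called (1.19% of all genes were called lower), at a difference of -0.46 (95% interval -0.67 to -0.25, adjusted p = 0.0395 by limma). Its call was lost in 15 of 28 alternatives, with adjusted p-values up to 0.193 without both arrays of the second wild-type replicate. Among them were the fits without the first (0.119), the second (0.134) or the third (0.0742) untreated knockout array and without the second (0.172) or the third (0.117) untreated wild-type array. Cd86 differed by -0.66 and missed the threshold (adjusted p = 0.103 by limma). It passed with the replicate number as a block (adjusted p = 0.0485 by limma, background 2.78% lower). Cd83 differed by -0.69 (95% interval -1.18 to -0.20, adjusted p = 0.216 by limma) with overlapping arrays, and Cd80 by -0.32 (adjusted p = 0.554 by limma). Each difference leaned on 1 array: without the first untreated knockout array that of Cd83 was -0.41, and without the third that of Cd80 was -0.19. The second Cd80 probe set differed by -0.50 in untreated cells, also short of the threshold (adjusted p = 0.452 by limma).

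The PD-1 ligands gave smaller differences between genotypes. Knockout minus wild type was 0.08 with curdlan and 0.10 untreated for Cd274, and -0.08 (95% interval -0.58 to 0.42) with curdlan and 0.00 (-0.50 to 0.50) untreated for Pdcd1lg2. Neither passed the threshold in either condition by limma, with adjusted p-values of 0.696 with curdlan and 0.671 untreated for Cd274, and of 0.942 with curdlan and 1.00 untreated for Pdcd1lg2. With curdlan the interval of Pdcd1lg2 was wide enough to hold differences as large as those of Cd80 and Cd86.

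Averaging each number-matched pair gave 3 values per genotype, a comparison chosen after the data were seen. Cd83 averaged 10.51 ± 0.25 in knockout pairs and 11.15 ± 0.17 in wild-type pairs (SD, n = 3 each), and Cd86 averaged 10.19 ± 0.29 in knockout pairs and 10.74 ± 0.01 in wild-type pairs. Cd80 averaged 11.02 ± 0.31 in knockout pairs and 11.41 ± 0.03 in wild-type pairs, and Icosl averaged 8.88 ± 0.09 in knockout pairs and 9.21 ± 0.14 in wild-type pairs. All knockout pairs were below all wild-type pairs for these 4 genes (7.93% of all genes), and above them for Cd274 (9.04% of all genes). None of the 6 passed by limma over all genes, where 0.497% did, with adjusted p = 0.104 for Cd83, 0.129 for Cd86, 0.138 for Icosl and 0.310 for Cd80. The wild-type pairs of Cd86 were nearly identical in level, so that the knockout spread made up most of the error of this difference.

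Among the dendritic cell markers, Cd209a moved with genotype and carried most of the shift of the list mean. That mean, in log2 per array, was 10.54 to 10.70 with curdlan in knockout cells and 10.86 to 10.90 with curdlan in wild-type cells, and 10.62 to 10.73 in untreated knockout cells and 11.05 to 11.18 in untreated wild-type cells. Of the 8 markers, 1 was called lower in knockout cells, Cd209a, at -1.42 with curdlan (adjusted p = 0.0396 by limma) and -2.45 untreated (adjusted p = 0.00588 by limma), and 0 were called higher. Over all genes 0.517% were called lower with curdlan and 1.19% untreated. Ciita differed by -0.64 with curdlan and -0.60 untreated, and Zbtb46 by -0.21 with curdlan and -0.30 untreated, all short of the threshold. Flt3, also not called, differed by 0.21 with curdlan and -0.12 untreated. Itgax, H2-Ab1, H2-Aa and Cd74 differed by 0.08 or less in either condition. In the macrophage, neutrophil, B cell, T cell, and mast cell and basophil lists 0 markers were called between genotypes. The part of these marker differences in the levels of Cd80, Cd86, Cd83 and Icosl was not tested.

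Across the arrays, Cd80 and Cd86 varied together also within groups: Pearson's r over the 12 arrays was 0.94, and 0.91 after the group means were removed. The third knockout replicate was the lowest knockout array for both genes, with curdlan and untreated. Cd86 and Cd83 correlated at 0.92 over the arrays but at 0.27 once the group means were removed, so that what they shared was mostly the difference between groups. Pdcd1lg2 and Cd83 correlated at 0.78 and 0.83, both with a low first replicate in untreated cells. Cd274 and Icosl ran in opposite directions, at -0.59 and -0.60. These are descriptions over the same 12 arrays and carry no test.

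The genes most like each member, by Pearson's r over the 12 arrays among 9629 other genes at or above the median level (predicted and clone-named genes left out), differed between members. For Cd274 they were Gbp9 (r = 0.997), Ifi214 (0.996) and Znfx1 (0.994). Ifi214 rose by 3.17 in knockout cells and 3.25 in wild-type cells on the log2 scale, and Znfx1 by 1.09 in knockout cells and 1.17 in wild-type cells, each larger than the rise of Cd274. For Cd83 they were Nudt17 (0.988), Samsn1 (0.983) and Pde4b (0.981). For Cd86 they were Mtmr14 (0.988), Pik3r5 (0.985) and Ccnd2 (0.984), and for Cd80 Plek2 (0.988), Rhof (0.984) and Dusp16 (0.982). Likeness was weakest for Pdcd1lg2, with Clk3 (0.926), Irf4 (0.924) and Kif1a (0.920). Icosl was most like Pimreg (0.965), Nup210 (0.965) and Mki67 (0.959), a gene used as a mark of dividing cells. Mki67, picked for its likeness to Icosl on these same arrays, had the same calls, which is therefore no separate evidence. Its curdlan difference was -0.25 in knockout cells (adjusted p = 0.365 by limma). It fell in wild-type cells (-0.81, adjusted p = 0.0157 by limma). It was also lower in untreated knockout cells than in untreated wild-type cells (-1.16, adjusted p = 0.0180 by limma).

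**Figure D4:**
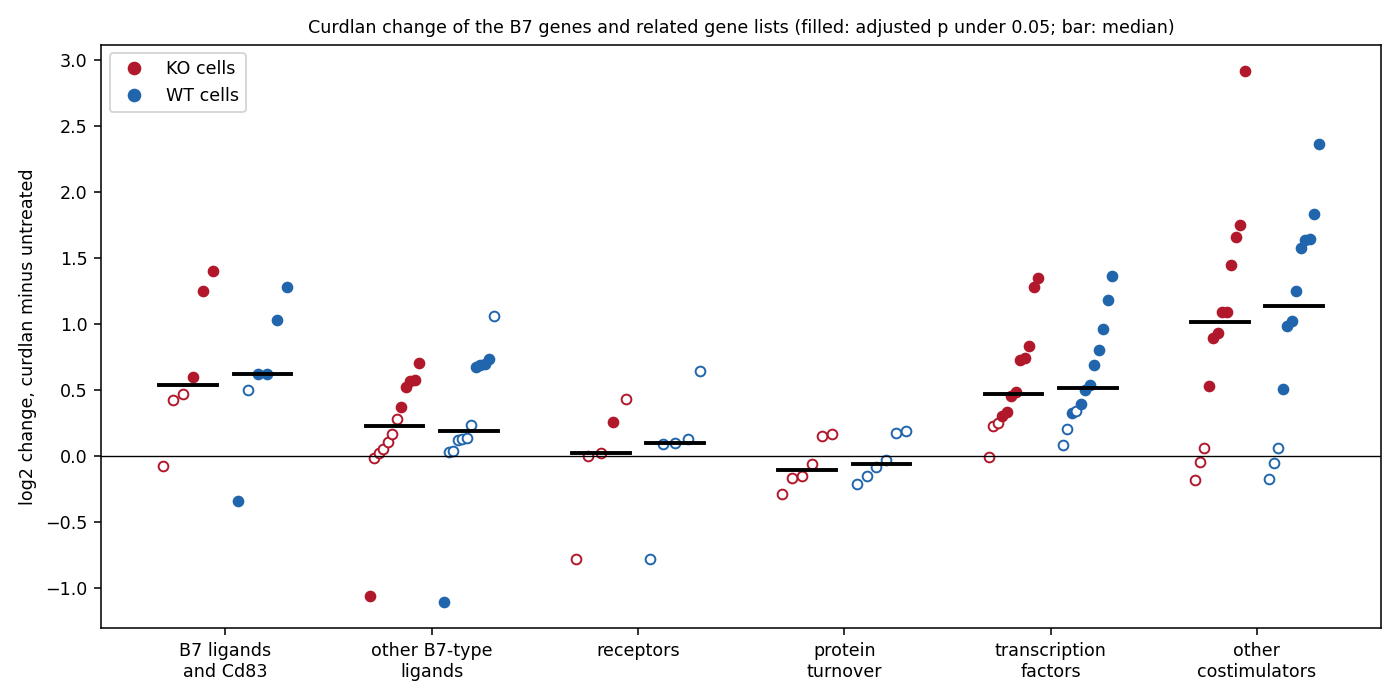
Curdlan minus untreated log2 changes (vertical axis) of the 6 genes and of the tested genes in 5 related lists, in knockout and wild-type cells; filled points have an adjusted p under 0.05 and bars are medians. The list of other costimulators, which includes Ccr7 and Il15ra, has a median of 1.02 in knockout cells and 1.14 in wild-type cells. The transcription factors have 0.47 in knockout cells and 0.52 in wild-type cells, against 0.04 (knockout) and 0.02 (wild type) over all genes.

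Other genes around the same synapse were read from lists chosen with earlier results of these data known. Their counts beside the shares of all genes are therefore descriptions and no test. A list of 12 genes held other B7 and butyrophilin-type molecules, partners and further ligands. Of these 12, 5 rose and 1 fell in knockout cells and 4 rose and 1 fell in wild-type cells. Over all genes 9.29% rose and 13.2% fell in knockout cells, and 7.27% rose and 12.3% fell in wild-type cells. Those that rose were Cd200, Pvr, Nectin2 and Lgals9 in both genotypes and Tnfrsf14 in knockout cells. The B7 and butyrophilin-type genes Cd276, Vtcn1, Ildr2 and Btnl2 were not called in either genotype. Group means of Vtcn1 (5.05 to 5.22), Ildr2 (5.85 to 5.90) and Btnl2 (6.25 to 6.40) lay below the median gene mean of 6.96. Those of Cd276 (8.97 to 9.40) lay above it. The one that fell was Vsir, the gene of VISTA, an inhibitory B7-type molecule, at -1.06 in knockout cells (adjusted p = 0.00138 by limma) and -1.10 in wild-type cells (adjusted p = 0.00089 by limma). Lgals9, which encodes galectin-9, rose by 0.58 in knockout cells and 0.74 in wild-type cells, and Nectin2, a ligand of TIGIT and CD226, rose by 0.71 in knockout cells and 0.68 in wild-type cells. The median change of this list was 0.23 in knockout cells and 0.19 in wild-type cells. Of the 5 receptors of the members, only Pdcd1 was called, in knockout cells (0.26, adjusted p = 0.0473 by limma), at a level below the median gene. None of the 6 genes for partners that control turnover of the proteins passed, and the one nearest to it was Cops5, which encodes a subunit of the COP9 signalosome (-0.29 in knockout cells, adjusted p = 0.0524 by limma). The receptors had median changes of 0.02 in knockout cells and 0.10 in wild-type cells, and the turnover partners -0.10 in knockout cells and -0.05 in wild-type cells.

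Of 12 tested transcription factors that act on B7 genes, 9 rose and 0 fell in each genotype. Over all genes 9.29% rose and 13.2% fell in knockout cells, and 7.27% rose and 12.3% fell in wild-type cells. Stat2, part of the complex that carries the type I interferon signal, rose by 1.35 in knockout cells and 1.37 in wild-type cells. Irf1, an interferon regulatory factor known to act on Cd274, rose by 1.29 in knockout cells and 1.19 in wild-type cells. Relb, the NF-kB subunit tied to dendritic cell maturation, was lower in knockout cells by values that missed the threshold, -0.45 with curdlan (adjusted p = 0.140 by limma) and -0.47 untreated (adjusted p = 0.0920 by limma).

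A list of 12 other surface molecules of dendritic cells held costimulators, with Ccr7 and Il15ra beside them. Of these 12, 9 rose and 0 fell in each genotype, against the same shares of all genes. Ccr7 and Il15ra were among the 9. Cd40, the receptor through which T helper cells license dendritic cells, rose by 2.92 in knockout cells and 2.37 in wild-type cells, more than any of the 6 members. Tnfsf4, the gene of OX40 ligand, rose by 1.66 in knockout cells and 1.83 in wild-type cells. Il15ra, which presents IL-15 to lymphocytes, rose by 1.75 in knockout cells and 1.58 in wild-type cells. Between genotypes, 2 of the 12 were called lower in knockout cells with curdlan and 1 untreated, and 0 were called higher in either, where 0.622% of all genes were called with curdlan and 1.19% were called lower untreated. Slamf1, a self-binding receptor of the SLAM family, differed by -1.16 on the log2 scale, knockout minus wild type, with curdlan (adjusted p = 0.0031 by limma). Untreated, Slamf1 differed by -0.96 (adjusted p = 0.00588 by limma). Tnfsf9, which encodes the ligand of 4-1BB, differed by -0.64 with curdlan (adjusted p = 0.0298 by limma).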

How the data were processed

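Each of 12 samples gave 100 ng of total RNA for 1 Affymetrix Mouse Gene 1.0 ST array. The authors deposited log2 values made with RMA, per the submitters' processing notes; the software version, the genome build and the arrays normalised together are all not given in the sources used here. Of 34760 probe sets, 21640 had 1 gene symbol in the platform annotation, 1321 had several and 11799 were not listed; these last 2 kinds were left out. For 954 genes with several probe sets the one with the highest mean was used, which left 19937 genes. No further normalisation or filter was applied.

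A limma 3.58.1 model in R 4.3.3 with 1 mean per group was fitted to all 12 arrays (8 residual degrees of freedom), with two-sided moderated tests and Benjamini-Hochberg adjustment over all genes at 0.05. It was tested on simulated data with 200 changed genes. Intervals are 95% intervals of that fit, SE is its standard error and SD is over the 3 arrays of a group.

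Same-numbered arrays of a genotype were taken as pairs. Their residuals correlated at 0.49 to 0.60 in knockout and 0.37 to 0.45 in wild-type cells, against -0.48 to 0.06 for other numbers. Residuals of a group sum to 0, so a positive value for same numbers pushes that for other numbers down. Across genotypes, the first treated wild-type and the second untreated knockout array correlated at 0.38. The pairing is therefore an assumption that the labels do not give. Between genotypes, same-numbered untreated arrays correlated at 0.11 to 0.25 and treated arrays at -0.13 to 0.33, so beside the results the number is a block for untreated genotypes alone, and its other fits stand among the alternatives. Alternatives changed the arrays fitted, the block, array weights, the variance trend, centring, normalisation, the probe sets and the arrays left out.

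The members and lists were chosen with earlier results of these data known. Named genes were the members, Il2 and Clec7a, for each member the 3 genes of highest correlation, and for each list up to 3 genes with the largest changes past the threshold, or the largest where none passed. Counts past the threshold describe the lists, with no set test.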

Additional observations from a re-analysis of the deposited data

Results flagged for a closer look

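The second probe set of Cd80, which did not represent the gene in the main fit, carried a curdlan signal above its untreated level. Its mean change was 0.95 on the log2 scale in wild-type cells, with 11.30, 11.42 and 11.30 in treated arrays and 10.18, 10.53 and 10.47 in untreated arrays. With 3 arrays a group, single arrays were not screened as outliers.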

How the results depend on the processing

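The curdlan calls of Cd86, Cd83 and Cd274 held in both genotypes under all 28 alternatives. Cd80 passed in knockout cells under 8 of 28 and lost its wild-type call under 7, Icosl lost its wild-type call under 10 and its untreated genotype call under 15, and Cd86 passed between untreated genotypes under 5; the cause was not tested. Uncalled values near 0 changed sign, such as Icosl in knockout cells (-0.14 to 0.02). With the replicate block, 5 members passed with curdlan in knockout cells, 2 between untreated genotypes and 1 on the pair means (Cd83, adjusted p = 0.0130 by limma); it changed the curdlan calls of Cd80 and Pdcd1lg2 and the untreated call of Cd86, and no other member call in those comparisons or with curdlan between genotypes. Between untreated genotypes array weights gave 2 members, and centring the array medians or keeping every probe set gave 0. Genes past the threshold between curdlan-treated genotypes numbered 124, and 15 with only the arrays compared, 450 with the block, 1402 with array weights and 28 with every probe set; untreated these were 283, 70, 699, 615 and 147. Centring the medians gave 1412 rises and 3120 falls in knockout cells, beside 1853 and 2628, and 1542 and 2086 in wild-type cells, beside 1449 and 2450. Leaving out arrays or pairs gave 1079 to 5284 genes with curdlan in knockout cells and 1841 to 4011 in wild-type cells, 18 to 299 between treated genotypes, 9 to 608 between untreated genotypes and 0 to 3 for the interaction. Members past the threshold were then 3 to 4, 3 to 5, 0, 0 to 2 and 0, and 0 on the pair means. The precision is limited by 3 arrays a group.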

Other observations

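In both genotypes the number 1 pair had the largest curdlan change of Cd83, 1.97 in knockout cells and 1.68 in wild-type cells, and the number 3 pair the smallest, 0.83 in knockout cells and 0.90 in wild-type cells. Pdcd1lg2 had its largest change in the number 1 pair as well. The root mean square change of all 19937 genes was also largest there, at 0.372 in knockout cells and 0.391 in wild-type cells, and smallest in the number 3 pairs, at 0.269 in knockout cells and 0.304 in wild-type cells. Replicate numbers have no order in the labels, and what the number 1 pairs shared was not tested.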
